A study of Bos taurus with 9 samples.

Results

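The genes described here are 47 regulators and enzymes of DNA replication and of the cell division cycle, measured in bovine blastocysts on day 8. They were chosen by gene symbol from a fixed list, and all 47 were found among the 22127 genes of the table. All 47 also passed the filter on low counts, which left 16469 genes for testing. Each of the 9 libraries was made from a pool of 9 to 11 embryos, with 3 libraries for each medium in which the oocytes had matured. Cumulus-oocyte complexes, which are oocytes still within their follicular cells, spent 24 hours in control medium with 5.5 mM glucose, in low glucose medium with 2.75 mM glucose, or in low glucose medium with 2.75 mM glucose and 1.8 mM BHB. The labels give only the letters BHB, read here as beta-hydroxybutyrate, a ketone body. All 3 media held serum, pyruvate, FSH and estradiol, and fertilisation in vitro and embryo culture were the same afterwards. By protocol, then, the groups differ in the medium before fertilisation. Because each library is a pool, differences between single embryos cannot be seen, though they may still add to differences between pools. Nothing in the labels ties the replicates to separate cultures, so a p-value here reflects the spread among these pools alone, part of which may be technical.

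A dividing cell first licenses its replication origins: the origin recognition complex, CDC6 and CDT1 load the ring-shaped MCM helicase onto DNA during G1. Cyclin D kinases and then cyclin E with CDK2 inactivate the retinoblastoma protein, which frees E2F transcription factors to switch on genes of the S phase, and cyclin B with CDK1 later drives mitosis. Early embryonic cells divide quickly, with short gap phases, and the blastocyst keeps dividing as its inner cell mass and trophectoderm expand.

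The libraries held 55611205 to 75178898 estimated counts each. Lineage markers of the labelled stage were detected. POU5F1 stood at 888 to 1101 CPM (the count of a gene as a share of its library, with TMM factors between libraries) and the trophectoderm marker CDX2 at 88.6 to 187 CPM. Of the epiblast markers tested POU5F1 was the steadiest, and others differed severalfold between libraries. NANOG stood at 24.1 to 73.9 CPM and was lowest in replicate 1 of each medium (33.6, 33.8 and 24.1 CPM). TDGF1 stood at 0.492 to 7.22 CPM, and the hypoblast marker SOX17 at 6.79 to 39.9 CPM. The oocyte gene GDF9 stood at 0.108 to 0.697 CPM, and some other oocyte genes were higher, such as OOEP at 4.22 to 10.2 CPM. Of the marker lists, the 15 cumulus and granulosa genes held 3 calls below control in each low glucose comparison (LUM, DCN and VCAN), and 13 of the 15 had a log2 change under 0 in low glucose and 12 of the 15 with BHB. Of hypoblast markers 1 of 11 tested was called lower in each low glucose medium (GATA4), and of 6 tested markers of sperm and other somatic cells 1 was called lower with BHB (COL3A1). None of the markers tested was called among epiblast (9 of 12 listed), trophectoderm (14 of 14) or oocyte genes (12 of 14).

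None of the 47 replication and cell cycle genes passed the test in any comparison between blastocysts from the 3 media. The members together took 0.523% ± 0.0140 of all counts in control, 0.512% ± 0.0435 in low glucose and 0.532% ± 0.0108 in low glucose with BHB (SD, n = 3 each). Over the 47 members the median log2 fold change was 0.04 in low glucose relative to control and 0.03 with BHB relative to control, and it was 0.00466 from low glucose to BHB. The medians over all genes tested were 0.02, 0.01 and 0.00536. In edgeR's quasi-likelihood test at an adjusted p under 0.05, 0 members were called in low glucose against control, where 2.03% of all genes were called. The count was also 0 with BHB against control, where 1.38% were called, and 0 between the low glucose media, where 0% were called. At those shares fewer than 1 call would fall among 47 genes (0.953 and 0.651), so the counts of 0 lie near the background and do not set the members apart. The role groups below are parts of the 47, and their counts of 0 carry the same limit. At an unadjusted p under 0.05 the members held 1, 0 and 0 genes in the same order, against 7.33%, 7.32% and 1.64% of all genes.

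The fold changes were narrow as well as small. For 44 members the 95% interval of the fold change lay within 2-fold in all 3 comparisons, and for 38 it lay within 1.5-fold. These are intervals for single genes and are not adjusted for their number. In each comparison 93.6% of the members had an interval within 2-fold. Over all genes tested it was 60.9% in low glucose and 61.2% with BHB, both against control, and 64.1% between the low glucose media. The 3 members whose interval reached beyond 2-fold, CCND1, E2F2 and RB1, were among those with the fewest counts. CDK6 had an interval about as wide as that of RB1 in low glucose (SE 0.411 and 0.407). It stayed within 2-fold because its estimate lay nearer to no change (0.08 against -1.22). In low glucose against control 44 of 47 members (93.6%) had a log2 difference under 0.25 in size, compared with 62.5% of all genes tested. The members also have more counts than most genes, with a median of 82.9 CPM against 11.3 CPM, and genes with more counts are measured more precisely. Its part in the narrow spread was not tested. Within groups the SD of log2 CPM had a median of 0.158 over the members and 0.291 over all genes tested.

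**Figure D1:**
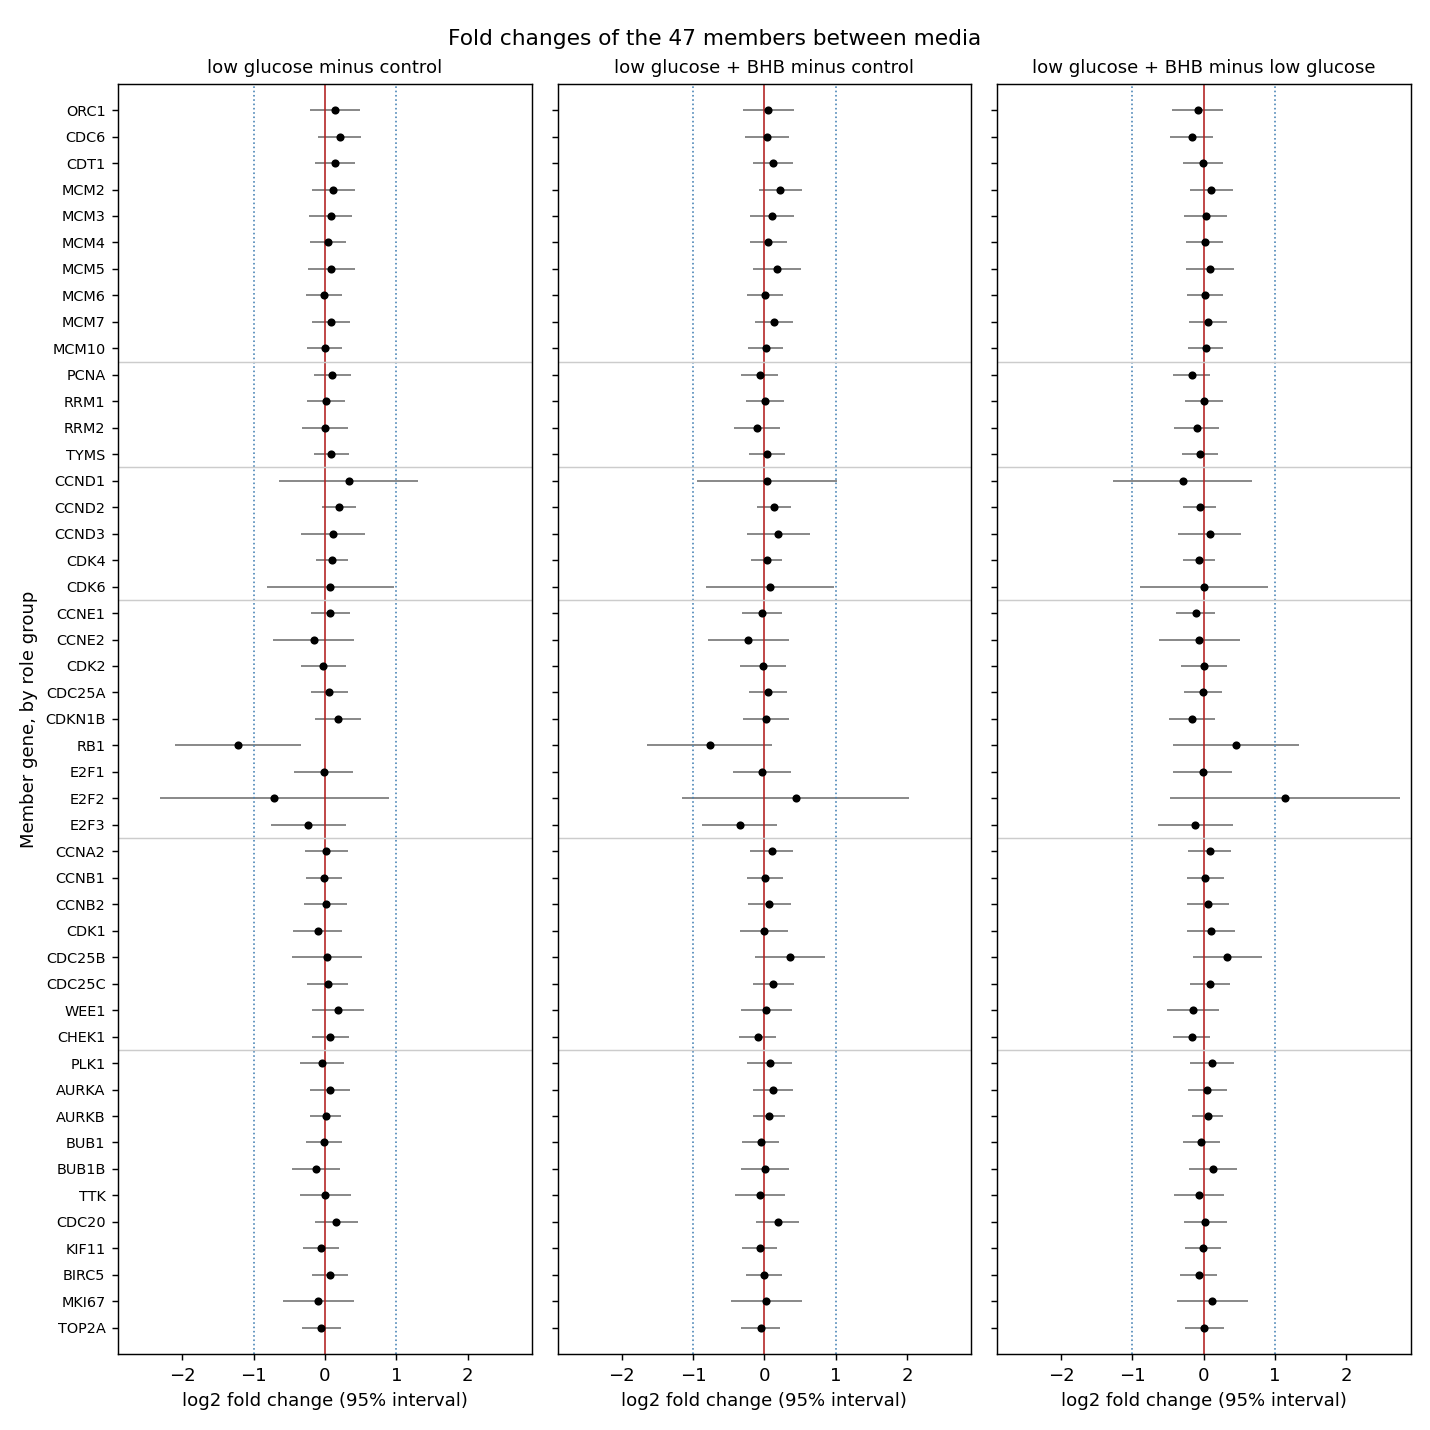
Log2 fold change of each of the 47 members (points) with its 95% interval (lines) in the 3 comparisons, grouped by role; dotted lines mark 2-fold. The interval lies within 2-fold in all panels for 44 members, and those of CCND1, E2F2 and RB1 reach beyond it in at least 1 panel.

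Genes of origin licensing and of the MCM helicase gave 0 calls among 10 in every comparison. Their medians were 0.09 in low glucose, 0.08 with BHB, both relative to control, and 0.02 from low glucose to BHB on the log2 scale, and the 3 medians given for later role groups follow this order. MCM2, a subunit of the helicase ring, was measured at 329, 357 and 407 CPM in control replicates 1 to 3, at 318, 400 and 466 CPM in low glucose and at 425, 422 and 428 CPM with BHB. The 3 BHB libraries lay close together and above all controls, while the low glucose libraries spread over both. Its log2 fold change with BHB was 0.22 (SE 0.139, adjusted p = 0.874). CDC6, the loading factor, stood at 16.4, 17.5 and 16.5 CPM in control, at 19.8, 20.5 and 17.8 CPM in low glucose and 16.5, 18.6 and 16.6 CPM with BHB. All low glucose libraries were above all controls, by 0.21 on the log2 scale (SE 0.139, adjusted p = 0.967), and BHB libraries overlapped with both. MCM6 had the lowest value of the group in both comparisons with control, and its 9 libraries lay between 146 and 191 CPM, with a log2 difference of -0.02 (SE 0.116) in low glucose and 0.00471 (SE 0.116) with BHB. The other helicase subunits MCM3, MCM4, MCM5 and MCM7, the initiation factor MCM10, the licensing factor CDT1 and the origin recognition subunit ORC1 ranged over the 9 libraries by factors of 1.26 (MCM10) to 1.55 (ORC1). None of these had separate groups.

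The sliding clamp and the enzymes that supply nucleotides showed the same picture, with 0 calls among 4. PCNA, the clamp that holds DNA polymerase on the template, was measured at 112, 123 and 113 CPM in control, at 131, 124 and 119 CPM in low glucose and 93.8, 121 and 117 CPM with BHB. BHB replicate 1 was the lowest library, and all groups overlapped. The log2 difference between the low glucose media was -0.17 (95% interval -0.43 to 0.09). RRM2, the regulated subunit of ribonucleotide reductase, was lowest in the same library, at 243 CPM, against 285 to 361 CPM in the other 8. RRM1, its catalytic partner, lay between 95.1 and 118 CPM, and TYMS, which makes thymidylate, between 77.0 and 98.4 CPM. Both overlapped between all groups, with log2 fold changes with BHB against control of 0.01 (SE 0.122) and 0.04 (SE 0.116).

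The D-type cyclins and their kinases, which carry growth signals into G1, gave 0 calls among 5. Their 5 log2 values were all above 0 in both comparisons with control, which share the control libraries, with medians of 0.11 and 0.08. Over all 47 members 30 were above 0 in low glucose and 32 with BHB, and over all 16469 genes tested 8765 and 8488. Of the 10 licensing genes 8 and 10 were above 0, so the shared direction is not particular to this group. CCND2 was measured at 85.7, 102 and 100 CPM in control, at 108, 113 and 109 CPM in low glucose and 111, 106 and 100 CPM with BHB. Low glucose libraries were above every control, by 0.20 on the log2 scale (SE 0.108, adjusted p = 0.866). CDK4, the kinase partner of the D cyclins, stood at 85.2, 83.5 and 81.7 CPM in control, at 90.2, 87.0 and 91.0 CPM in low glucose and 83.7, 80.6 and 92.0 CPM with BHB. The control and low glucose values did not overlap, yet the step between them was 0.10 on the log2 scale (SE 0.102, adjusted p = 0.997). CCND3 varied more, from 36.0 to 61.0 CPM, and was low in replicate 1 of each medium, at 36.0 in control, 40.9 in low glucose and 36.6 CPM with BHB.

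CCND1 and CDK6 had few counts, and their libraries differed more within a medium than the media did. CCND1 stood at 2.49, 1.20 and 1.44 CPM in control, at 3.56, 1.62 and 1.27 CPM in low glucose and 1.67, 2.11 and 1.47 CPM with BHB. The highest value came from low glucose replicate 1. The log2 fold change in low glucose was 0.33 with an interval from -0.64 to 1.31, and -0.22 without that library. CDK6, the other partner of the D cyclins, ranged from 2.50 to 6.40 CPM, with log2 differences of 0.08 (SE 0.411) in low glucose and 0.08 (SE 0.412) with BHB. For CCND1 and CDK6 the within-group SD of log2 CPM was 0.560 and 0.607, and differences between media inside these intervals could not be detected with 3 libraries of each medium. CPM is not divided by transcript length, so levels are compared between libraries for the same gene and not between genes.

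Control of the step from G1 into S included the member with the largest difference from control, RB1, which encodes the retinoblastoma protein. It was measured at 2.10, 3.75 and 2.69 CPM in control, at 1.73, 1.04 and 0.899 CPM in low glucose and at 1.36, 2.38 and 1.27 CPM with BHB. Every low glucose library was below every control, while BHB replicate 2 lay among the controls. Mean levels were 2.85 ± 0.836, 1.22 ± 0.442 and 1.67 ± 0.612 CPM (SD, n = 3 each). The log2 fold change was -1.22 in low glucose (SE 0.407, 95% interval -2.11 to -0.33), with an unadjusted p of 0.0111 and an edgeR adjusted p of 0.270. With BHB against control it was -0.77 (SE 0.402, adjusted p = 0.790), and between the low glucose media 0.45 (SE 0.405). RB1 rests on 53 to 269 counts per library, and without control replicate 2 its value in low glucose was -0.97 (adjusted p = 0.726). Over all 16 other settings the adjusted p for low glucose ran from 0.116 to 0.726.

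Cumulus and granulosa markers were lower in sum in the same comparison, though not in every gene. Their summed level was 301 to 413 CPM in the control libraries, 96.1 to 184 CPM in low glucose and 98.4 to 165 CPM with BHB, and of the 15 genes only INHA had no counts in any low glucose library. Most of the summed difference came from LUM, whose mean was 139 CPM in control but 14.3 CPM in low glucose, and VCAN, whose means were 74.9 and 12.8 CPM. Among the 12 markers not called, means in control and low glucose were 15.9 and 2.08 CPM for FST, 6.08 and 3.35 CPM for INHBA and 3.10 and 1.37 CPM for FOXL2. FSHR stood at 4.18 and 4.85 CPM and HSD3B1 at 45.3 and 59.5 CPM, the 2 markers with a log2 difference above 0, and CYP19A1 at 21.2 and 19.5 CPM. Their part in the RB1 values was not tested. In these pools, fewer cells of a type and less RNA per cell cannot be told apart.

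The E2F factors, which the retinoblastoma protein restrains, gave no call. E2F1 overlapped between all media, at 21.7 to 32.8 CPM, with log2 differences of -0.02 (SE 0.189) and -0.03 (SE 0.189) against control. E2F3 stood at 6.12, 6.26 and 7.54 CPM in control, at 6.25, 6.36 and 4.34 CPM in low glucose and 6.04, 5.55 and 4.05 CPM with BHB. All BHB libraries were below all controls, with a log2 fold change of -0.35 (SE 0.244, adjusted p = 0.906). E2F2 had the fewest counts of any member, 10 to 78 per library, and stood at 1.31, 0.418 and 0.149 CPM in control, at 0.458, 0.296 and 0.390 CPM in low glucose and 0.919, 0.783 and 0.836 CPM with BHB. The BHB libraries lay above all low glucose libraries, and the controls spread beyond both. Its log2 fold change between the low glucose media was 1.15, with an interval from -0.47 to 2.76 (adjusted p = 0.9999).

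The remaining genes of this step differed little. CDKN1B, which encodes the CDK inhibitor p27, was measured at 45.6, 40.1 and 31.6 CPM in control, at 45.2, 45.8 and 42.3 CPM in low glucose and 42.9, 40.7 and 35.3 CPM with BHB. All groups overlapped, and the log2 fold change in low glucose was 0.19 (SE 0.147, adjusted p = 0.997). CCNE2, a cyclin E gene, was low in low glucose replicate 3 (7.24 CPM) and BHB replicate 2 (6.73 CPM) and lay between 10.8 and 12.9 CPM in the other 7 libraries. CCNE1, the other cyclin E gene, its kinase CDK2, and CDC25A, the phosphatase that activates CDK2, had log2 differences from control between -0.03 and 0.08 in both media.

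**Figure D2:**
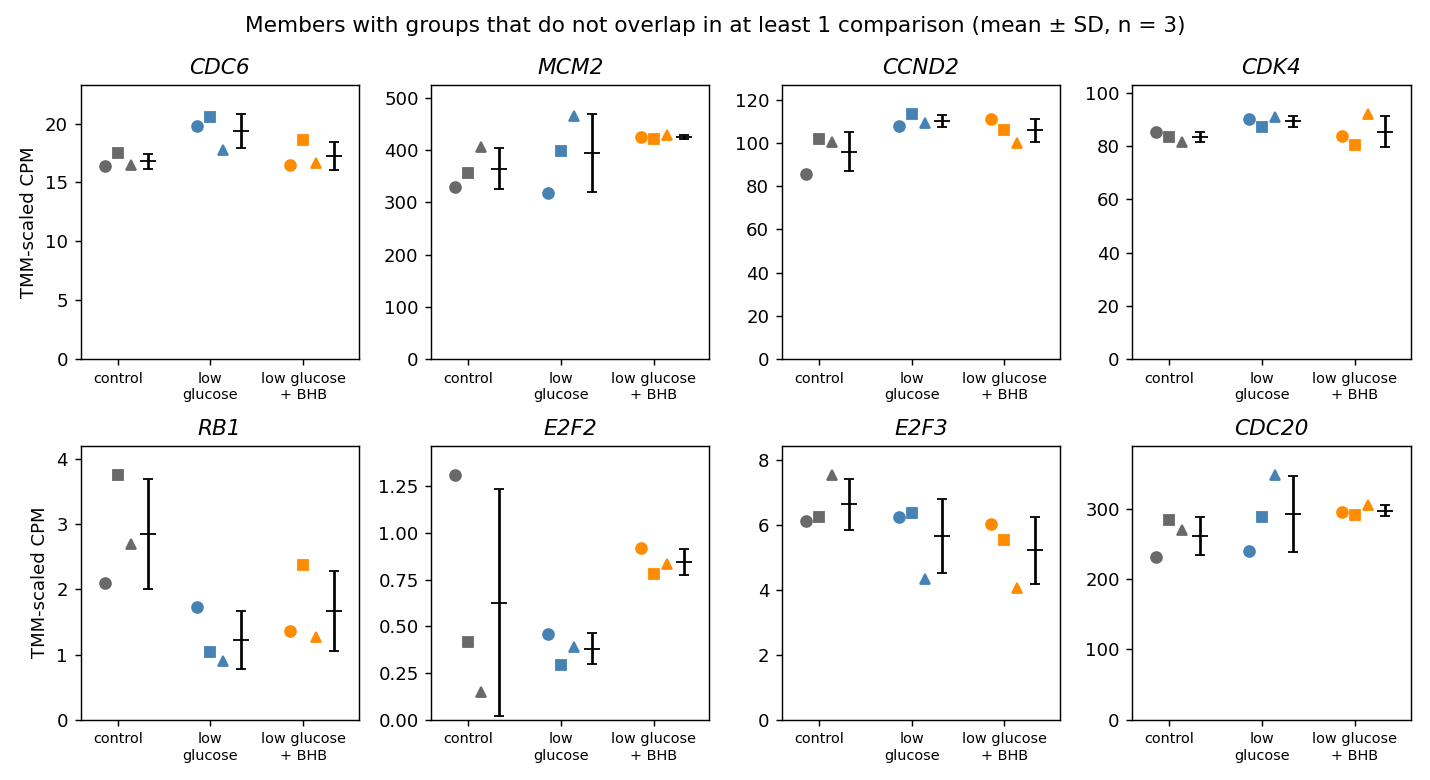
TMM-scaled CPM of the 8 members whose libraries did not overlap between 2 media in at least 1 comparison; symbols are replicates 1 (circle), 2 (square) and 3 (triangle), and black marks the mean ± SD (n = 3). RB1 in low glucose (0.899 to 1.73 CPM) lies under all controls (2.10 to 3.75 CPM), and E2F2 with BHB (0.783 to 0.919 CPM) lies above low glucose (0.296 to 0.458 CPM).

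Some members had groups that did not overlap. In low glucose against control 4 of 47 members had separate groups (CDC6, CCND2 and CDK4 higher, RB1 lower), or 8.51%, beside 13.2% of all genes tested. With BHB against control there were 3 (MCM2 and CDC20 higher, E2F3 lower), or 6.38% beside 13.3%. Between the low glucose media there was 1, E2F2, or 2.13% beside 5.51%. At the shares of all genes 6.18, 6.27 and 2.59 of the 47 members would have separate groups. The counts of 4, 3 and 1 lie a few genes below these and do not set the members apart. The comparisons share libraries, and no test was made of this.

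Cyclins A and B, CDK1 and the enzymes that switch it gave 0 calls among 8, with medians of 0.02, 0.05 and 0.07. CDC25B, a phosphatase that activates CDK1 at the entry into mitosis, was measured at 13.0, 13.7 and 10.5 CPM in control, at 13.1, 11.0 and 13.9 CPM in low glucose and 21.6, 11.8 and 14.4 CPM with BHB. The higher BHB mean came from replicate 1. Its log2 fold change against control was 0.36 (SE 0.223, adjusted p = 0.872), or 0.08 without that library. CHEK1, the checkpoint kinase that responds to stalled replication, stood at 67.6, 56.6 and 59.2 CPM in control, at 60.7, 64.2 and 68.3 CPM in low glucose and 53.3, 56.2 and 62.5 CPM with BHB. The low glucose media overlapped, at a difference of -0.17 (95% interval -0.42 to 0.09).

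CDK1 itself was measured at 47.9, 46.2 and 37.3 CPM in control, at 46.4, 35.7 and 40.3 CPM in low glucose and 46.3, 36.2 and 48.6 CPM with BHB. All 3 groups covered almost the same range, and the log2 fold changes against control were -0.10 (SE 0.156) in low glucose and -0.00327 (SE 0.156) with BHB. WEE1, the kinase that holds CDK1 inactive, lay at 23.5 to 35.0 CPM and differed by 0.18 (SE 0.166) in low glucose. CCNA2, CCNB1, CCNB2 and CDC25C differed from control by -0.02 to 0.13 in both media. CCNB1, which is cyclin B1, stood at 184 to 221 CPM over all libraries.

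Mitotic kinases, checkpoint proteins and chromosome proteins gave 0 calls among 11, with medians of -0.01, 0.00438 and 0.02. CDC20, the activator of the anaphase-promoting complex, stood at 231, 284 and 270 CPM in control, at 241, 289 and 348 CPM in low glucose and 295, 291 and 306 CPM with BHB. BHB libraries lay just above all controls, by 0.18 on the log2 scale (SE 0.137, adjusted p = 0.908), and low glucose libraries overlapped with both. BUB1B, a kinase-like protein of the spindle checkpoint, was measured at 62.3, 59.1 and 47.8 CPM in control, at 52.2, 47.2 and 56.0 CPM in low glucose and 62.6, 45.1 and 61.9 CPM with BHB. Its groups overlapped throughout, with log2 differences of -0.12 (SE 0.154) and 0.00438 (SE 0.154) against control.

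KIF11, the motor that pushes spindle poles apart, was highest in control replicate 1, at 104 CPM, with the other 8 libraries at 81.7 to 91.8 CPM. BIRC5, the survivin subunit of the chromosomal passenger complex, stood at 101 to 126 CPM, and its log2 difference between the low glucose media was -0.07 (SE 0.117). AURKB, the kinase of that complex, was the steadiest of the 47 members, with a within-group SD of 0.0457 on the log2 scale and 62.0 to 69.8 CPM in all libraries. MKI67, which encodes the proliferation marker Ki-67, was the most variable gene of this role group. It was measured at 224, 167 and 125 CPM in control, at 137, 175 and 171 CPM in low glucose and 233, 162 and 131 CPM with BHB. Control and BHB libraries covered almost the same range, with a log2 difference of 0.03 (95% interval -0.47 to 0.52). PLK1, AURKA, BUB1, TTK and TOP2A, which are mitotic kinases and the topoisomerase that untangles chromosomes, differed from control by -0.06 to 0.12 in both media.

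**Figure D3:**
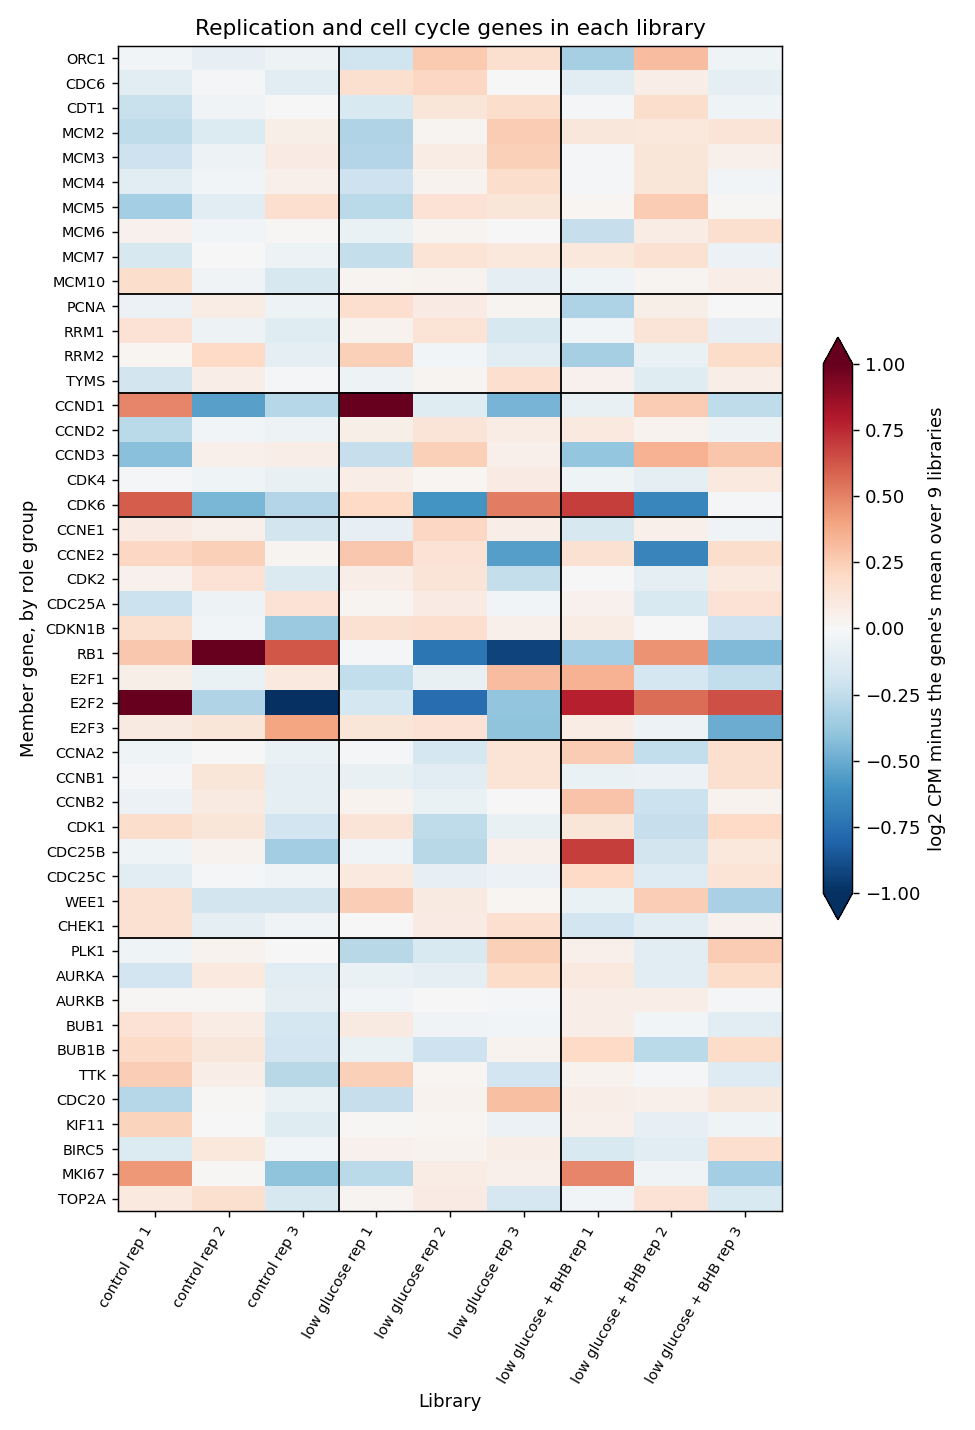
Log2 CPM of each member minus its own mean over the 9 libraries (colour, limited to 1 on either side), with members grouped by role in rows and libraries in columns. The strongest colours belong to members with few counts, RB1, E2F2, CCND1 and CDK6, whose highest library is 2.56 to 8.82 times the lowest.

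Role groups varied between libraries of the same medium as well as between media. Each library was described by the median, over the genes of a role group, of log2 CPM minus the gene's mean over the 9 libraries. For origin licensing and helicase genes this was -0.14, -0.04 and 0.00316 in control replicates 1 to 3, -0.20, 0.10 and 0.14 in low glucose, and -0.02, 0.12 and -0.00495 with BHB. The lowest values belonged to control replicate 1 and low glucose replicate 1. All 10 genes lay above their own mean in low glucose replicate 2 and in BHB replicate 2, against 2 of 10 in low glucose replicate 1. For S and G2 genes the values were -0.03, 0.02 and -0.09 in control, 0.02, -0.09 and 0.04 in low glucose and 0.16, -0.16 and 0.12 with BHB, so that BHB held both the highest and the lowest library.

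Mitosis genes stood at 0.10, 0.07 and -0.12 in control, -0.03, 0.02 and 0.04 in low glucose and 0.06, -0.04 and -0.00936 with BHB. In control replicate 3, which had the lowest value, 1 of 11 genes lay above its own mean. The median of mitosis genes minus that of licensing genes was 0.23, 0.11 and -0.12 in control, 0.18, -0.08 and -0.10 in low glucose and 0.08, -0.15 and -0.00441 with BHB. Replicate 1 had the highest balance toward mitosis genes in each medium, and the media overlapped. The labels do not say what the replicate numbers stand for.

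**Figure D4:**
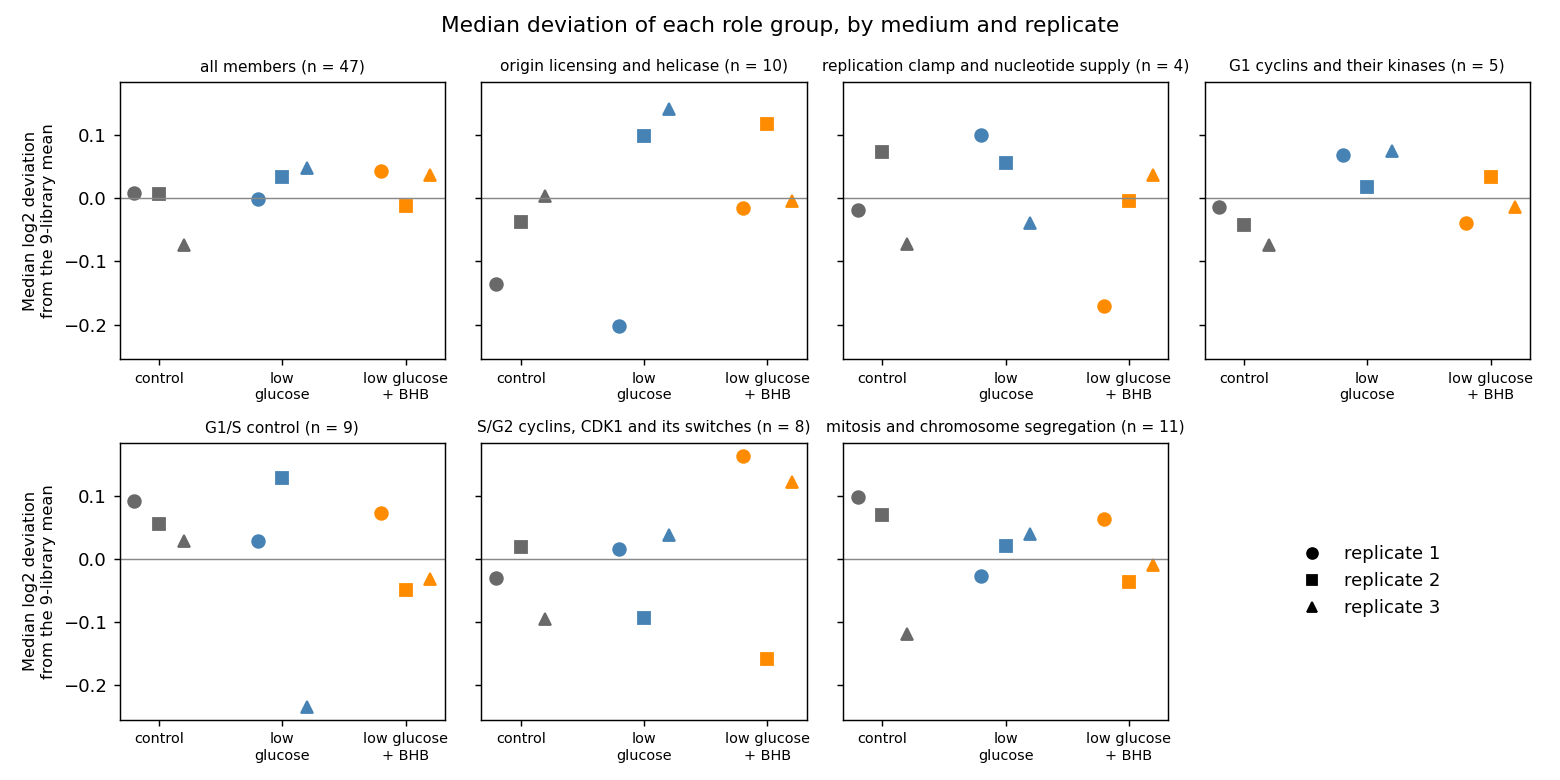
Median log2 deviation of each role group from the 9-library mean, per library; symbols are replicates 1 (circle), 2 (square) and 3 (triangle) and colours are media. The media overlap in the panels except that of the G1 cyclins and kinases, where low glucose (0.02 to 0.07) lies above control (-0.07 to -0.01), and licensing genes are lowest in control replicate 1 (-0.14) and low glucose replicate 1 (-0.20).

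Other genes of the same processes, on lists that hold no member, gave 0 calls in all 3 comparisons. Over all genes tested 2.03% were called in low glucose and 1.38% with BHB, both against control, and 0% between the low glucose media. A count of 0 on a list of 40 to 54 genes lies near that background and does not set the list apart. Of 46 further replication genes, among them the other origin recognition subunits, GINS proteins, polymerases and clamp loaders, all were tested, and their medians were 0.02, 0.05 and -0.000325. Of 55 further mitosis genes 54 were tested, with medians of -0.01, 0.03 and 0.04. Of 41 further genes of G1 and CDK control 40 were tested, with medians of 0.04, 0.05 and -0.05. ORC2 and GINS3 had the smallest p of the replication list in low glucose, at -0.36 (SE 0.220) and 0.24 (SE 0.149), and CHAF1B and RECQL4 with BHB, both at 0.28 (SE 0.133 and 0.137).

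Among these lists, the gene with the smallest p in each comparison with control was on the G1 and CDK control list. RBL2, which encodes the retinoblastoma relative p130, was measured at 10.8, 8.64 and 9.97 CPM in control, at 6.57, 6.80 and 5.39 CPM in low glucose and 4.95, 6.32 and 5.00 CPM with BHB. All 6 low glucose libraries, with and without BHB, lay below all controls. Its log2 fold change was -0.65 in low glucose (SE 0.206, edgeR adjusted p = 0.222) and -0.85 with BHB (SE 0.207, edgeR adjusted p = 0.0810). DESeq2 called it with BHB (-0.85, adjusted p = 0.00534), and none of the other 15 alternatives did, with an adjusted p of up to 0.278. The lowest edgeR adjusted p among fits that left out a library was 0.0720. The lower cumulus and granulosa marker sums given beside RB1 are those of the same libraries, and their part in the RBL2 and CDKN1A values was not tested.

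RBL1, the third gene of that family, is named because of its values and not by the rule for named genes. It stood at 12.6, 13.1 and 11.9 CPM in control, at 13.5, 17.4 and 13.9 CPM in low glucose and 10.9, 17.2 and 13.5 CPM with BHB. Low glucose libraries lay above all controls and BHB libraries spread over both. Its log2 difference in low glucose was 0.26 (SE 0.191, adjusted p = 0.989). Of the 40 genes tested on the G1 and CDK control list, 4 lay above all controls in low glucose and 2 below. With BHB 1 lay above all controls and 2 below. Over all genes tested 13.2% and 13.3% had separate groups in these comparisons, so such separation does not set the list apart. CDKN1A, which encodes the CDK inhibitor p21, stood at 46.9, 29.4 and 33.3 CPM in control, at 24.3, 16.0 and 28.6 CPM in low glucose and 31.5, 17.9 and 25.8 CPM with BHB. Low glucose libraries lay below all controls, while BHB libraries overlapped with the controls. The log2 differences were -0.67 (SE 0.256, adjusted p = 0.433) and -0.54 (SE 0.255, adjusted p = 0.707). With the replicate block the edgeR adjusted p was 0.0521 and 0.159, the lowest over the alternatives, and no setting called the gene.

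Of the other mitosis genes, MAD1L1, a spindle checkpoint gene, was higher with BHB than in every control, at 87.7, 86.7 and 69.5 CPM against 49.4, 57.5 and 60.2 CPM. In low glucose it stood at 50.2, 58.2 and 79.1 CPM and overlapped with both. The log2 fold change with BHB was 0.55 (SE 0.169, adjusted p = 0.246). MAD1L1 was the only gene of the 54 tested with separate groups in that comparison, beside 13.3% of all genes tested. KIF14, a motor of cell separation, was higher with BHB (33.4, 30.9 and 26.7 CPM) than in each low glucose library (21.4, 25.2 and 21.3 CPM), at 0.42 (SE 0.151, adjusted p = 0.9999). No other gene of that list had separate groups between the low glucose media, where 5.51% of all genes tested did. PBK and UBE2S had the smallest p of that list in low glucose, at -0.23 (SE 0.141) and 0.21 (SE 0.135). Between the low glucose media POLA1, a polymerase gene, stood at 0.16 (SE 0.120), the CDK inhibitor gene CDKN1C at -0.52 (SE 0.228) and E2F6 at 0.20 (SE 0.144).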

How the data were processed

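NEBNext Ultra II libraries were made from poly(A) RNA of embryo pools, per the labels' protocols. Values in the deposited gene table are estimated counts, and 23.4% of them have decimals. The submitters' processing notes name fastp, kallisto, DESeq2 and the build bosTau9, with no role, version or annotation. Kallisto divides reads that match several transcripts, so similar genes can share reads. Of the members, 24 had a count that is not whole in at least 1 library. Groups came from the sample titles.

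After rounding, the counts entered edgeR 4.0.16 (R 4.3.3), with filterByExpr (minimum count 10, minimum total 15), TMM factors, a mean for each of the 3 media in 1 quasi-likelihood fit over 9 libraries, two-sided tests, Benjamini-Hochberg adjustment over 16469 genes, threshold 0.05. The SE is the log2 change divided by the root of F, and intervals cover 95%. Log2 CPM used a prior count of 2. Replicate pairs all differed by more than sampling noise (chi-square per degree of freedom at least 38.1).

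Between the low glucose media, same-numbered libraries deviated together (correlations 0.115, 0.243 and 0.102), a hint from the data alone that the numbers pair them. The main fit did not use the numbers, so its SEs, intervals and p-values are unpaired in every comparison. The replicate number entered only as a block in 1 of the alternatives. The members, the lists and the rule for named genes (the 5 smallest p per comparison and the highest and lowest member of each role group, plus the 2 smallest p per further list) were chosen with earlier results of these data known. Alternatives were DESeq2 1.42.0, limma-voom (limma 3.58.1), RLE factors, no filter, a filter at mean count 50, the replicate block, fits on the 6 libraries of a comparison, and omission of each library. A planned search of promoter letters was not run, and sequences were not used here. Figures were drawn with matplotlib 3.10.9.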

Additional observations from a re-analysis of the deposited data

How the results depend on the processing

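No member was called in any of the 3 comparisons under any of the 16 alternatives run, and the members' median log2 change moved by less than the spread between libraries (0.0352) in all of them. Leaving out each library in turn gave medians of 0.02 to 0.05 for low glucose against control, 0.00677 to 0.06 for BHB against control and -0.01 to 0.03 between the low glucose media. E2F2 did not reach a mean count of 50 and has no value under that filter. The number of all genes called in low glucose against control was 334, or 581 by DESeq2 and 196 to 391 when single libraries were left out, the count being 196 without control replicate 3 and, with low glucose replicate 2 left out, 197. With BHB against control it was 228, or 441 by DESeq2 and 91 to 257 when single libraries were left out, with 91 without control replicate 3, 94 without BHB replicate 3, 122 without control replicate 1 and 133 without BHB replicate 1. Between the low glucose media it was 0, also without any single library, with 270 genes at an unadjusted p under 0.05, and 2 by DESeq2. The causes were not tested. With the replicate block the counts were 405, 278 and 0, and the block changed no call of a member. Against control the pairing by number was less clear. Correlations of same-numbered libraries were above 0, at 0.131, 0.0491 and 0.0417 for low glucose and 0.144, 0.0626 and 0.0458 for BHB. Of 6 libraries, 4 in low glucose against control and 3 in BHB against control correlated best with their own number. Between the low glucose media 6 of 6 did. Among values of the 24 members that the rule for named genes picked, 96 changed sign under an alternative, with no call on either side. Another 1053 values kept their direction. Of the other genes named, RBL2 with BHB was called by DESeq2 only. CDKN1A in low glucose had an adjusted p of 0.0521 with the replicate block, within a range of 0.0521 to 1 over its alternatives, and with BHB 0.159 in a range of 0.159 to 0.9995. The widest intervals were those of E2F2, RB1, CCND1 and CDK6, and the parts of depth and of spread between pools in them were not tested.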
